A study of Mus musculus with 18 samples.

Results

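The genes described here are 34 markers of astrocytes, taken by symbol from a list of genes used to recognise this cell type, out of 48440 genes in the deposited table. All 34 were found in the table, and all 34 passed the filter on low values in each of the comparisons. RNA had been sequenced from the brains of Diversity Outbred mice, whose animals each carry a different mixture of founder strain genomes. For each of 3 tissues, prefrontal cortex (PFC) and those labelled MDTH and HPF, high performers and low performers gave 3 libraries each, so that 18 libraries fell into 6 groups. The task behind the words high and low, the animals' age and sex, and the dissection are not in the sources used here. It is also not stated that the 3 libraries of a group came from separate animals, so a p-value here reflects only how these libraries vary, which may be technical.

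Astrocytes are glial cells that tile the brain and contact both synapses and blood vessels. They clear glutamate, GABA and glycine from the extracellular space, return glutamine to neurons, buffer potassium, move water and ions at their vascular endfeet, and secrete lipoproteins and matrix proteins. Their gene expression is known to differ between brain regions, and the intermediate filament protein GFAP is known to be more abundant in astrocytes of the hippocampus than in those of the cortex or thalamus. The 34 genes are not all exclusive to astrocytes: ependymal cells also express Clu and Gfap, microglia express Apoe, oligodendrocytes express Glul, and endothelial cells express Vim. In bulk tissue, fewer cells of a type and less RNA per cell cannot be told apart.

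PFC libraries held an estimated 41098043 to 48848640 reads, MDTH libraries 42874301 to 47535071 and HPF libraries 76668860 to 88706089. The neuronal glutamate transporter gene Slc17a6, a marker of thalamic neurons, lay at 32071 to 55025 normalized counts in MDTH and at 784 to 1267 in PFC. The cortical and hippocampal Slc17a7 lay at 49279.8 to 89047 in PFC and HPF against 3283 to 18331 in MDTH. Within MDTH these neuronal genes differed by group. Slc17a6 read 50303, 55025 and 50476 (high) and 34500, 36293 and 32071 (low). Gad2, which makes GABA, read 536, 495 and 437 (high) and 9547, 2839 and 2457 (low). One library stood apart in HPF. The second high performer held 3954 normalized counts of Slc17a6 against 132 to 392 in the other 5, and 151267 of Ttr, a choroid plexus gene. Ttr also exceeded 50000 normalized counts in the first high and in the second and the third low libraries of PFC, at 137823, 116924 and 68839. In PFC and MDTH the library names were written in one style for high and another for low performers, so performance and whatever the naming stands for cannot be told apart there. The HPF names also separate the groups, by letters after the number (EF or FF for high, BA or BD for low), whose meaning is not stated. In HPF both high libraries other than the third were on lane 3, both low libraries other than the third on lane 5, and 1 library of each group was on lane 4. All PFC and MDTH libraries carried a lane label that no HPF library had. Between HPF and the other tissues, tissue, lane and read number therefore cannot be told apart.

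All 34 genes were read in every library, the defining markers Aldh1l1, Aqp4 and Slc1a3 among them, which does not show that their RNA came from astrocytes alone. Levels of different genes were compared as normalized counts per kilobase of exon. Sparcl1, which encodes a secreted matrix protein that promotes synapse formation, was the highest of the 34 in each tissue, at 39494 per kilobase in PFC, 48294 in MDTH and 36573 in HPF. Glul, encoding the enzyme that turns glutamate into glutamine, and Apoe (ENSMUSG00000002985, GRCm38 chromosome 7, 19696109 to 19699188, minus strand, protein coding), encoding the main apolipoprotein of the brain, took the next places in all 3 tissues. The lowest level was that of Gldc in MDTH, at 45.1 per kilobase. These ranks rest on the length of all annotated exons, 13.133 kilobases for Slc1a2 and 2.937 for Sparcl1. In undivided normalized counts Slc1a2 was above Sparcl1 in PFC (191643 against 115993) and HPF (182727 against 107416). In MDTH it was below (121822 against 141839). Exons of 9 of the 34 genes overlap those of another annotated gene, among them Slc1a2, Fgfr3, Slc6a9 and Aldh1l1, and reads there may be shared since the use of strand in counting was not given.

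These genes differed widely between the tissues. Of the 34, 18 were highest on average in MDTH, 12 in HPF and 4 in PFC (Dio2, Glul, Mfge8 and Slc1a2). Between MDTH and PFC, 21 were higher and 4 lower in MDTH with an adjusted p below 0.05 in a limma fit to all 18 libraries, where 20.3% and 20.4% of 18254 genes tested were higher and lower. Between MDTH and HPF, 15 were higher and 8 lower in MDTH (29.1% and 29% of all genes tested). Between HPF and PFC, 14 were higher and 1 lower in HPF (21.8% and 23.7%). The medians of the 34 log2 differences were 0.47, 0.11 and 0.28, and those of all genes tested lay between -0.02 and 0.02. These 3 comparisons share libraries and are not independent. In both comparisons with HPF, tissue cannot be told apart from lane and read number. The single gene lower in HPF became 2 without the first high or the first low library of PFC, the second low of MDTH or the third high of HPF. The median between MDTH and HPF was 0.00 without the second HPF high library, 0.041 without the first HPF low, 0.18 without the second HPF low and 0.23 without the third HPF high. Both comparisons with HPF also depended on the performance group. In low performers alone the median between HPF and PFC changed sign. In high performers alone that between MDTH and HPF did. The values are given with the dependence on processing.

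**Figure D1:**
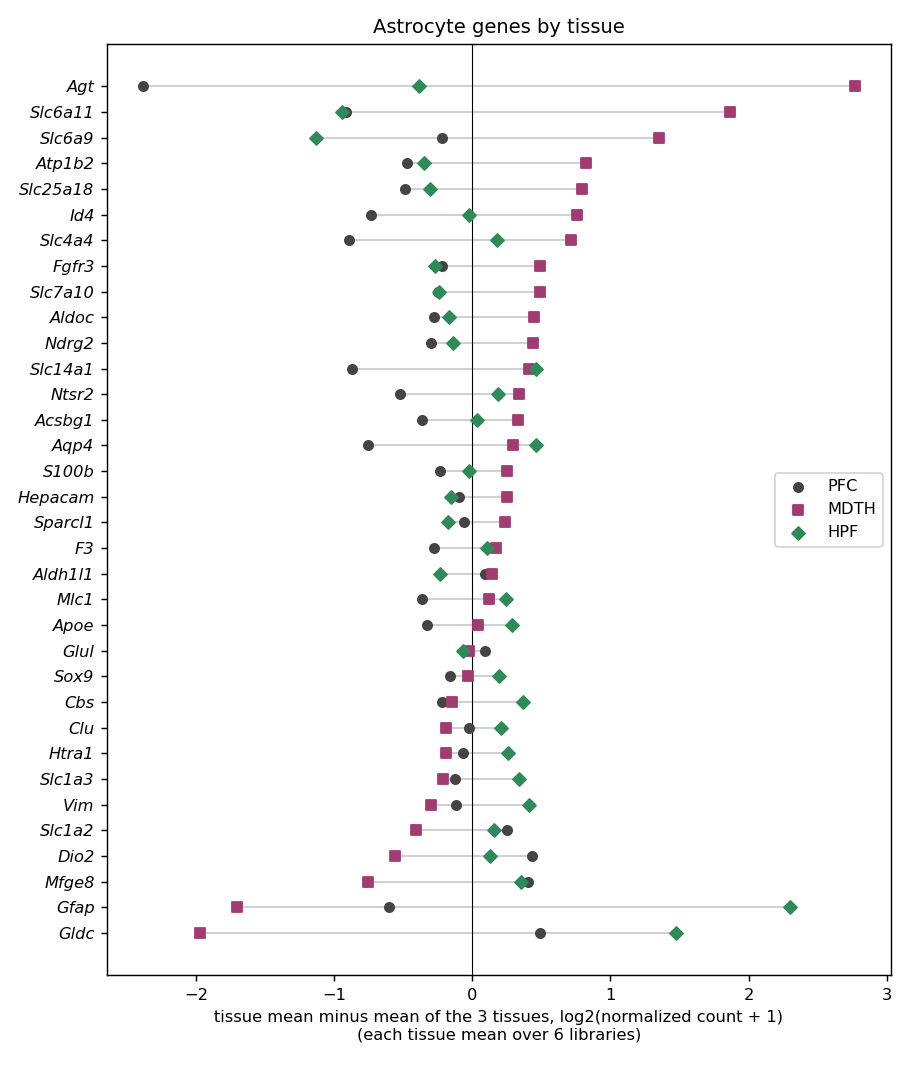
Mean level of each of the 34 astrocyte genes in PFC, MDTH and HPF, as the difference from the mean of the 3 tissues on the log2(normalized count + 1) scale (horizontal axis), each tissue mean taken over 6 libraries; genes are ordered by their value in MDTH (vertical axis). Agt and Slc6a11 stand far to the right in MDTH, Gldc and Gfap far to the left, and Gfap is highest in HPF.

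The genes for uptake of inhibitory transmitters set MDTH apart. Slc6a11 (ENSMUSG00000030307, GRCm38 chromosome 6, 114131241 to 114249952, plus strand, protein coding), encoding the GABA transporter GAT-3, had lowest, median and highest values of 36174, 51874 and 57644 normalized counts in the 6 MDTH libraries, 5373, 7577 and 8119.6 in PFC and 5239, 6548 and 12072 in HPF. Every MDTH library lay above every library of the other tissues, and the highest HPF value was that of the second high performer, the library that stood apart. Against PFC, Slc6a11 was 6.86-fold higher in MDTH (log2 difference 2.78, SE 0.15, adjusted p = 5.21e-10), and against HPF 7.00-fold (log2 difference 2.81, SE 0.15, adjusted p = 2.89e-10), while HPF and PFC differed by -0.03 (adjusted p = 0.900). Slc6a9, encoding the glycine transporter GlyT1, exceeded its PFC level 2.98-fold in MDTH and its HPF level 5.59-fold (adjusted p = 2.04e-06 and 6.92e-09), and it was the one gene of the 34 to pass as lower in HPF than in PFC, at -0.91 (adjusted p = 4.90e-04). Slc7a10, the transporter of D-serine and other small neutral amino acids, was higher in MDTH than in both by 0.73 (adjusted p = 1.79e-04 and 1.13e-04).

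Gldc (ENSMUSG00000024827, GRCm38 chromosome 19, 30098447 to 30175429, minus strand, protein coding), encoding the glycine decarboxylase of the mitochondrial glycine cleavage system, ran the other way. Its lowest, median and highest values were 218, 282 and 314 normalized counts in MDTH, 1286, 1537 and 1684 in PFC and 2328, 2858 and 4913 in HPF, so that the 3 tissues did not overlap. It was 5.49-fold lower in MDTH than in PFC (log2 difference -2.46, SE 0.15, adjusted p = 1.88e-09), 10.9-fold lower than in HPF (log2 difference -3.44, SE 0.15, adjusted p = 2.60e-11) and 1.98-fold higher in HPF than in PFC (log2 difference 0.99, SE 0.15, adjusted p = 4.95e-05). Of the 3 tissues, MDTH held the most RNA of Slc6a9, for glycine uptake, and the least of Gldc, for glycine cleavage.

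Agt (ENSMUSG00000031980, GRCm38 chromosome 8, 124556534 to 124569706, minus strand, protein coding), encoding angiotensinogen, the precursor of the angiotensin peptides, had the widest range of the 34 between MDTH and PFC. In MDTH the high performers' libraries read 8326, 4334 and 5775 normalized counts and the low performers' 11889, 13626 and 14585. In PFC they read 173, 164 and 266 (high) and 259, 358 and 336 (low). In HPF they read 1468, 2107 and 736 (high) and 744, 719 and 800.0 (low). No tissue overlapped another, and the second HPF high performer was the highest of its tissue here too. MDTH exceeded PFC 35.6-fold in Agt (log2 difference 5.15, SE 0.22, adjusted p = 4.16e-11) and HPF 8.92-fold (log2 difference 3.16, SE 0.22, adjusted p = 6.22e-09), and Agt was 3.99-fold higher in HPF than in PFC (log2 difference 2.00, SE 0.22, adjusted p = 2.26e-06). In high performers alone Agt differed by 2.17 between MDTH and HPF and by 2.74 between HPF and PFC, and in low performers alone by 4.14 and 1.26.

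Gfap (ENSMUSG00000020932, GRCm38 chromosome 11, 102887336 to 102900912, minus strand, protein coding), encoding the astrocyte intermediate filament protein, was highest in HPF. HPF libraries of high performers read 29178, 14221 and 37436 normalized counts of Gfap and those of low performers 18027, 18336 and 19914. PFC libraries read 1658, 1052 and 6482 (high) and 1862, 8333 and 3290.3 (low). MDTH libraries read 846, 442 and 1088 (high) and 1667, 3349 and 2642 (low). Each HPF library was above all PFC and MDTH libraries, whereas PFC and MDTH overlapped. Gfap was 16.0-fold lower in MDTH than in HPF (log2 difference -4.00, SE 0.43, adjusted p = 1.05e-06) and 7.49-fold higher in HPF than in PFC (log2 difference 2.91, SE 0.43, adjusted p = 5.30e-05), and MDTH and PFC differed by -1.10 (adjusted p = 0.0558). With a block for the number that library names share across tissues, that last difference passed, at -1.06 (adjusted p = 0.0306). Between MDTH and HPF, Gfap differed by -5.07 in high performers alone and by -2.93 in low performers alone. Between HPF and PFC it differed by 3.50 without the libraries high in Ttr. The other intermediate filament gene, Vim, did not pass in any of the 3 comparisons, with adjusted p between 0.0774 and 0.712.

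Genes of endfoot water, ion and urea transport were higher in MDTH than in PFC throughout. All 6 of that group, Aqp4, Slc4a4, Atp1b2, Mlc1, Hepacam and Slc14a1, passed, with a median log2 difference of 1.17. Slc4a4, encoding a sodium bicarbonate cotransporter, had lowest, median and highest values of 15533, 20480.2 and 24898 normalized counts in MDTH, 12060.4, 13613 and 17055 in HPF and 5471, 6939.8 and 7441 in PFC, a 3.04-fold difference between MDTH and PFC (log2 difference 1.60, SE 0.10, adjusted p = 4.13e-09). In MDTH, Atp1b2, encoding a beta subunit of the sodium-potassium pump, exceeded PFC 2.45-fold and HPF 2.26-fold (adjusted p = 1.90e-09 and 3.48e-09). Slc14a1, the urea transporter, had lowest, median and highest values of 293, 384 and 679 normalized counts in PFC, 697, 1119 and 1394 in MDTH and 813, 989 and 1566 in HPF. It was 2.52-fold higher in HPF than in PFC (log2 difference 1.33, SE 0.19, adjusted p = 2.58e-05), and Aqp4, the water channel of the endfeet, was 2.33-fold higher (log2 difference 1.22, SE 0.18, adjusted p = 4.93e-05). The differences between MDTH and HPF did not pass for either gene, at -0.05 (SE 0.19) for Slc14a1 and -0.17 (SE 0.18) for Aqp4. Hepacam (ENSMUSG00000046240, GRCm38 chromosome 9, 37367351 to 37386575, plus strand, protein coding), encoding the adhesion protein GlialCAM, was higher in MDTH than in PFC by 0.35 (adjusted p = 0.0335), a call that was lost on leaving out any of 6 single libraries, 2 of PFC and 4 of MDTH (adjusted p up to 0.0924).

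The main glutamate transporter gene was lower in MDTH. Slc1a2, encoding GLT-1, the main glutamate transporter of the forebrain, was 1.58-fold lower in MDTH than in PFC (log2 difference -0.66, SE 0.10, adjusted p = 5.72e-05) and 1.48-fold lower than in HPF (log2 difference -0.57, SE 0.10, adjusted p = 1.35e-04). PFC libraries read 202364, 213078 and 186913 normalized counts (high) and 172927, 178079 and 196498 (low). MDTH libraries read 145598, 135611 and 116787 (high) and 108842, 107210.1 and 116884 (low), and HPF libraries 182405, 169550.1 and 258745 (high) and 144954, 166692 and 174018 (low). All MDTH libraries were below all PFC libraries, and the first MDTH high library, at 145598, was just above the lowest of HPF, at 144954. Slc1a3, encoding the related transporter GLAST, was higher in HPF than in PFC by 0.46 (adjusted p = 0.00398) and lower in MDTH than in HPF by 0.55 (adjusted p = 7.84e-04). Slc1a3 read 22704, 29096 and 26608 (high) and 30675, 28699 and 29284 (low) in PFC, 32279.6, 28545 and 22279 (high) and 26636, 26284 and 22264 (low) in MDTH, and 44836, 33189 and 53456 (high) and 29890.2, 37893 and 34413 (low) in HPF. The HPF high libraries spread more widely than any other group for this gene. Slc25a18, the mitochondrial glutamate carrier, exceeded its PFC level 2.43-fold in MDTH (adjusted p = 3.34e-06), and Glul passed in none of the 3 comparisons (log2 differences from -0.16 to 0.04).

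Among the metabolic enzymes, Aldoc, encoding the aldolase of brain glycolysis, exceeded its PFC level 1.66-fold in MDTH (adjusted p = 1.95e-05), and Dio2, which makes active thyroid hormone, was 1.99-fold lower (adjusted p = 0.0162). Aldh1l1, an enzyme of folate metabolism used as a pan-astrocyte marker, read 2525, 3383 and 2701 normalized counts (high) and 2244, 2836 and 2660.1 (low) in PFC. It read 3217, 2798 and 2580.4 (high) and 2463, 3368 and 2555 (low) in MDTH, and 1969, 1920.0 and 3251 (high) and 1846, 2032 and 2223 (low) in HPF. MDTH and PFC overlapped, with a difference of 0.06 (adjusted p = 0.777), and the call against HPF, at 0.38 (adjusted p = 0.0222), was lost on leaving out any of 5 single libraries (adjusted p 0.0521 to 0.0632). Among the secreted proteins other than Agt, Mfge8, a bridging protein in phagocytosis, in MDTH lay 2.23-fold below PFC and 2.15-fold below HPF (adjusted p = 1.05e-07 and 1.03e-07). All 4 receptor and surface genes, Fgfr3, Ntsr2, Ndrg2 and F3, were higher in MDTH than in PFC, by 0.45 to 0.86. Of the 2 transcriptional regulators, Id4 exceeded its PFC level 2.81-fold in MDTH (adjusted p = 4.84e-06), and Sox9, which specifies and maintains the astrocyte fate, differed by 0.13 (adjusted p = 0.552).

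Leaving out the 4 libraries high in Ttr, the second HPF high performer among them, gave 20 genes higher and 4 lower between MDTH and PFC, 13 and 12 between MDTH and HPF, and 16 and 1 between HPF and PFC. The median between MDTH and HPF moved from 0.11 to 0.00. The block for the number in library names gave 21 and 5, 15 and 9, and 14 and 2, the additional genes being Gfap, Dio2 between MDTH and HPF, at -0.75 (adjusted p = 0.0123), and Aldh1l1 between HPF and PFC, at -0.35 (adjusted p = 0.0246). Shares of all genes that passed in these fits are not given here, so the counts cannot be set against the shares of the main fit.

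The promoters of 3 of these genes, Agt, Gfap and Gldc, are shown because their RNA differed widely between tissues. They were chosen after the values were seen. Each run is the 250 bases before the gene's start in RefSeq on GRCm38.p6, 5′ to 3′ on the gene's strand, from a table that held 28 of the 34 genes. The coordinates given above for whole genes are those of GENCODE, and the RefSeq start of Gfap lies inside that gene model. None of the 3 runs overlaps a GENCODE exon. Capitals mark matches on either strand to any of 4 motifs, namely TATAAA (the TATA box), TTGGC (the half-site of nuclear factor I), TTCNNNGAA (the STAT site) and ACAAT (the core bound by SOX factors).
Gfap, chr11:102897201-102897450, minus strand: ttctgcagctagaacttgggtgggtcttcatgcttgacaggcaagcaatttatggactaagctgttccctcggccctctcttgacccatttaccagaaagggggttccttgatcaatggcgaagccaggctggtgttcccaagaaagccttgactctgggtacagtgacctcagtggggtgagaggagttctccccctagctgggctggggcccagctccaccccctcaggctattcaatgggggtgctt
Agt, chr8:124569707-124569956, minus strand: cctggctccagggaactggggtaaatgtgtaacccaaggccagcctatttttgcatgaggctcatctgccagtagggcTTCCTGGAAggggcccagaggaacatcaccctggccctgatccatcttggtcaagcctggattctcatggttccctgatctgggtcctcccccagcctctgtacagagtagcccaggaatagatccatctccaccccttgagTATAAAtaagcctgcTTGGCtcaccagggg
Gldc, chr19:30175442-30175691, minus strand: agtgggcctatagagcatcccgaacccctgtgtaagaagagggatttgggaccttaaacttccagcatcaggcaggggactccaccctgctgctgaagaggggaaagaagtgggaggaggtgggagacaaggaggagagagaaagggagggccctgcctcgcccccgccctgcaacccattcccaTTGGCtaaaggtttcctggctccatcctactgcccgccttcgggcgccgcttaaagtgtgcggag

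The Agt promoter held a TATA box whose first base lies 30 bases before the start, a nuclear factor I half-site at 15 and a STAT site at 172. Of 32851 promoters of that length in the table, 12.4% held TATAAA, 41.5% TTGGC, 7.02% TTCNNNGAA and 27.7% ACAAT, on either strand. The promoter of Gldc held 1 nuclear factor I half-site, 65 bases before the start. None of the 4 motifs was in the 250 bases of Gfap. A match is a description of letters and shows no binding.

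In MDTH, several of these genes were lower in high performers. With an adjusted p below 0.05 in limma, 8 of the 34 were lower (23.5%) and 1 higher (2.94%), where 12.5% of 17861 genes tested were lower and 12.5% higher. Another 25 did not pass. The median log2 difference, high minus low, was -0.13 over the 34, with 13 above and 21 below 0, and -0.0031 over all genes tested. Leaving out the first high library moved the median to -0.20, and leaving out the third to -0.058. The groups did not overlap for 11 genes lower and 2 higher in high performers, 32.4% and 5.88% of the 34, against 22% and 22.2% of all genes tested. Those that were lower included the intermediate filament gene Gfap, the water channel Aqp4, the apolipoproteins Apoe and Clu, the angiotensinogen gene Agt, the adhesion gene Hepacam, the neurotensin receptor Ntsr2 and the regulator Sox9.

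**Figure D2:**
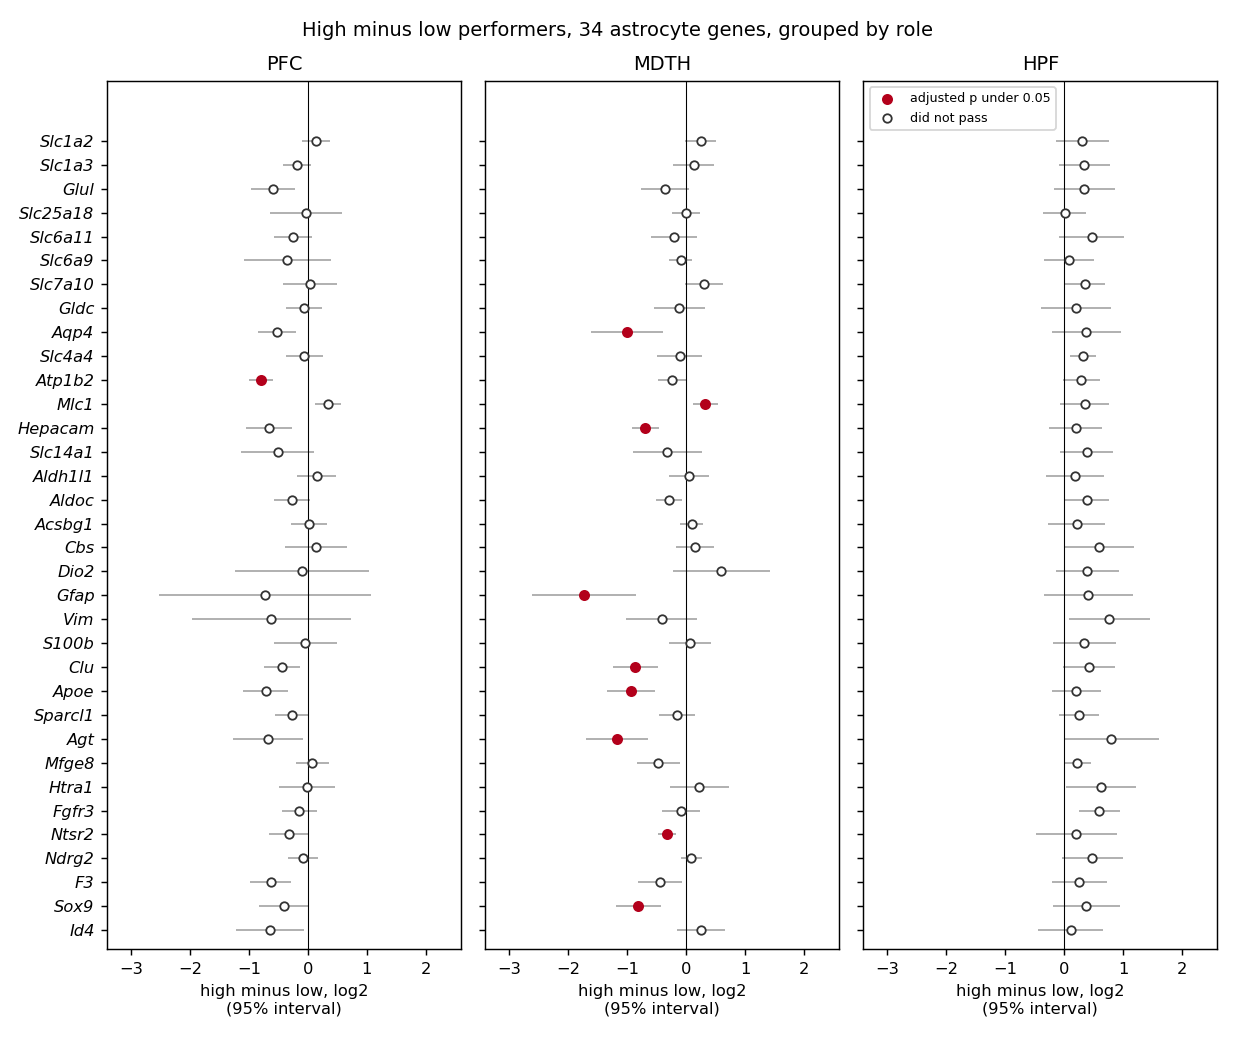
High minus low performers for the 34 astrocyte genes in PFC, MDTH and HPF, on the log2(normalized count + 1) scale (horizontal axis) with 95% intervals from limma, 3 against 3 libraries, genes grouped by role (vertical axis). Filled points have an adjusted p below 0.05: 1 gene in PFC, 9 in MDTH and 0 in HPF, where all 34 points lie to the right of 0.

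Gfap had the largest difference in MDTH. Its high libraries, at 846, 442 and 1088 normalized counts, all lay below its low libraries, at 1667, 3349 and 2642 (792 ± 326 against 2553 ± 845, mean ± SD, n = 3 each). It fell by 1.73 on the log2 scale in high performers (SE 0.37, adjusted p = 0.0178), a 3.31-fold difference. Without the second or the third low library the adjusted p was 0.0586 and 0.0668. Aqp4 stood at 7573, 6761 and 3922 (high) and 9606, 11869 and 14171 (low), again without overlap (log2 difference -1.003, SE 0.26, adjusted p = 0.0304). This call was lost without the second high, the second low or the third low library (adjusted p 0.0594, 0.0825 and 0.104).

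The genes of the secreted proteins Apoe, Clu and Agt were all lower. Apoe was 54653, 35435 and 48334 (high) and 75940.3, 89544 and 95256 (low), a log2 difference of -0.93 (SE 0.17, adjusted p = 0.0115), a 1.91-fold difference. Clu, encoding the chaperone and apolipoprotein clusterin, was 25925, 19185 and 17209.8 (high) and 32821, 38838 and 39752 (low), a log2 difference of -0.86 (SE 0.16, adjusted p = 0.0118). Agt, whose values are given above, was 2.25-fold lower in high performers (log2 difference -1.17, SE 0.22, adjusted p = 0.0123). In none of the 3 did a high library reach a low one. Without the third low library the adjusted p rose to 0.0502 for Clu and 0.0518 for Agt. The remaining secreted proteins, Sparcl1, Mfge8 and Htra1, differed by -0.15, -0.47 and 0.23 and did not pass (adjusted p = 0.418, 0.0687 and 0.465).

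Hepacam and Mlc1 encode proteins that bind each other at astrocyte junctions, where GlialCAM brings MLC1 to the membrane. In MDTH they passed in opposite directions. Hepacam stood at 4406, 3898 and 4438 normalized counts (high) and 6238, 6771 and 7513 (low), a log2 difference of -0.69 (SE 0.10, adjusted p = 0.00547), the smallest adjusted p of the 34. Mlc1 stood at 9816, 9066 and 8129 (high) and 6862, 7406 and 7195 (low), with every high library above every low one (log2 difference 0.33, SE 0.09, adjusted p = 0.0347). The Hepacam call held on leaving out each library in turn. That of Mlc1 was lost without the first or the second high library or without any single low library (adjusted p 0.074 to 0.0983). In PFC the same pair had the same signs, at -0.66 (adjusted p = 0.0663) for Hepacam and 0.34 (adjusted p = 0.0781) for Mlc1, neither of which passed, though the groups did not overlap for either gene. The high libraries of PFC and MDTH carry the same numbers in their names (44, 88 and 165), so PFC is not an independent repeat.

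Sox9 and Ntsr2 completed the genes that were lower in MDTH. Sox9 was 884, 998 and 1066 (high) and 1475, 2157 and 1576 (low), a log2 difference of -0.80 (SE 0.16, adjusted p = 0.0143). Ntsr2, encoding a neurotensin receptor found on astrocytes, was 4782, 4939 and 4844 (high) and 5891, 6118 and 6206 (low), a log2 difference of -0.32 (SE 0.06, adjusted p = 0.0147). Neither gene overlapped between the groups. The small and tight difference of Ntsr2 was lost without the second or the third low library (adjusted p 0.0514 and 0.0608) and in a fit that took its spread from all 18 libraries (adjusted p 0.295). Without the third low library, 3 of the 8 genes still passed as lower, namely Hepacam, Apoe and Sox9.

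Among the transmitter transporters and enzymes no gene passed in MDTH, with 0 of 4 genes of glutamate uptake, 0 of 4 of GABA, glycine and serine handling and 0 of 5 metabolic enzymes by limma (unadjusted p below 0.05 in 1 of the enzymes and 0 of the others). Slc1a2 differed by 0.25 (95% interval -0.01 to 0.52, adjusted p = 0.139), Slc1a3 by 0.13 (-0.21 to 0.48, adjusted p = 0.542) and Aldh1l1 by 0.04 (-0.29 to 0.38, adjusted p = 0.844). The difference between Slc1a2 and the genes that were lower was not tested.

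**Figure D3:**
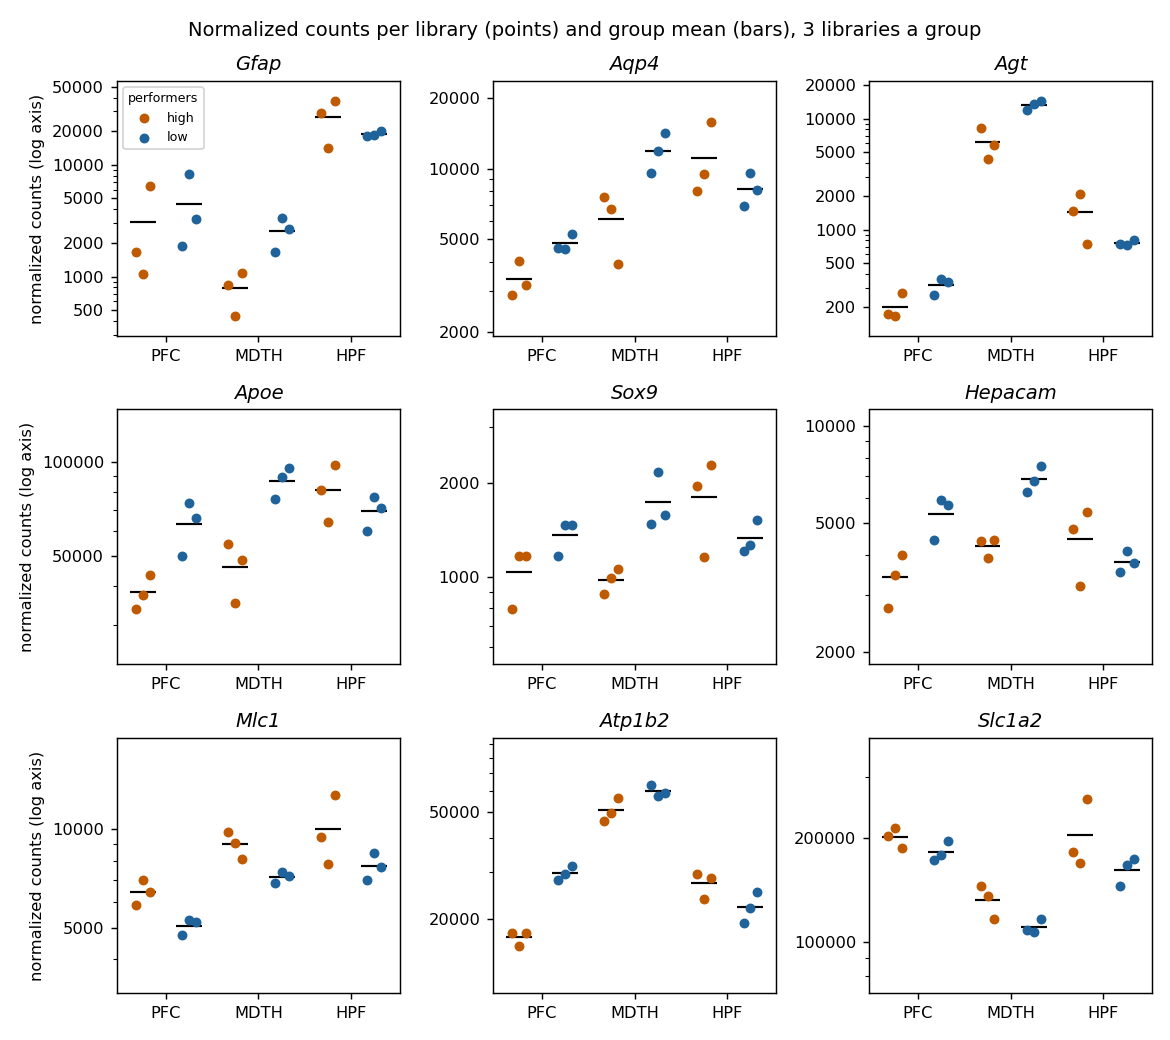
Normalized counts (log axis) of 9 astrocyte genes in every library, with points for 3 high and 3 low performers in each tissue (horizontal axis) and bars at the group means. In MDTH the high libraries of Gfap, Aqp4, Agt, Apoe, Sox9 and Hepacam lie below the low libraries and those of Mlc1 above; in PFC the high libraries of Atp1b2 run from 15862 to 17760 and the low ones from 27921 to 31574.

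In PFC, 1 of the 34 genes was lower in high performers and 0 were higher by limma (10 had an unadjusted p below 0.05), where 2.63% and 3.22% of 17991 genes tested were lower and higher. The share of all genes with an unadjusted p below 0.05 is not given here, so the 10 cannot be read as an excess. The gene that passed was Atp1b2 (ENSMUSG00000041329, GRCm38 chromosome 11, 69599736 to 69605942, minus strand, protein coding), the pump subunit. Its high libraries held 17759.9, 15862 and 17652 normalized counts and its low libraries 27921, 29471 and 31574, with a wide gap between the groups (17091 ± 1066 against 29655 ± 1834, mean ± SD, n = 3 each). The difference was 1.74-fold (log2 difference -0.80, SE 0.08, adjusted p = 0.0118). The call was lost without the second high, the third high or the third low library (adjusted p 0.0649, 0.0635 and 0.0642), while Apoe also passed without the first low library (0.0443) and F3 without the second (0.0354). Without the 3 libraries high in Ttr, which left 2 high libraries and 1 low, the lone one being taken to vary like the others, the difference was -0.74 (adjusted p = 0.178).

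The median over the 34 genes in PFC was -0.26, against -0.01 over all genes tested, with 27 below and 7 above 0. Without the libraries high in Ttr the median was -0.13. The groups did not overlap for 10 genes lower and 1 higher in high performers (29.4% and 2.94%), against 13.8% and 17.2% of all genes tested. Apoe was next, with 33685, 37425 and 43479 (high) and 49879, 73571 and 66285 (low), a log2 difference of -0.72 (SE 0.16, adjusted p = 0.0512). F3, encoding tissue factor, stood at 1534, 1520.3 and 1498 (high) and 2112, 2967 and 2067 (low), a log2 difference of -0.63 (SE 0.15, adjusted p = 0.0553). Hepacam stood at 2739, 3453 and 3999 (high) and 4438, 5916 and 5685 (low), a log2 difference of -0.66 (SE 0.17, adjusted p = 0.0663), and Aqp4 at 2895, 4016 and 3199 (high) and 4601, 4523 and 5278 (low), a log2 difference of -0.52 (SE 0.14, adjusted p = 0.0698). In each of these 4 the groups did not overlap, yet none passed. Apoe, F3 and Hepacam did pass where the spread was taken from all 18 libraries (adjusted p 0.0202, 0.0374 and 0.0203). Without the 3 libraries high in Ttr, Apoe differed by -0.31 (adjusted p = 0.356), F3 by -0.48 (adjusted p = 0.223), Hepacam by -0.26 (adjusted p = 0.420) and Aqp4 by -0.36 (adjusted p = 0.388). Gfap, Slc1a2, Slc1a3 and Aldh1l1, whose PFC values are given above, overlapped between the groups and differed by -0.72, 0.14, -0.18 and 0.15 (adjusted p = 0.597, 0.453, 0.320 and 0.555). Oligodendrocyte markers took 0.284%, 0.376% and 0.626% of all normalized counts in the PFC high libraries and 0.285%, 0.997% and 0.450% in the low. The third high and the second low library, with the largest of these shares, were also the highest of PFC in Gfap. A link between them was not tested.

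In HPF, all 34 genes had a higher mean in high performers, and 0 passed by limma in either direction (6 had an unadjusted p below 0.05). Of 18082 genes tested, 0.0111% were higher and 0.00553% lower. The median over the 34 was 0.34, against -0.01 over all genes tested. The groups did not overlap for 4 genes, Slc4a4, Aldoc, Mfge8 and Fgfr3, all higher in high performers (11.8%, against 8.47% of all genes tested), and for 0 lower (11.6% of all genes). The smallest p was that of Fgfr3, encoding a growth factor receptor of astrocytes and their precursors, with 7036, 5963 and 8438 (high) and 4223, 5373 and 4507 (low), a log2 difference of 0.60 (SE 0.15, adjusted p = 0.205). Slc4a4 stood at 14134, 16214 and 17055 (high) and 12523, 12060.4 and 13092 (low), a log2 difference of 0.33 (SE 0.09, adjusted p = 0.243). For both genes the lowest high library was above the highest low one.

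Vim, Htra1 and Cbs came next in HPF. Vim stood at 1895, 1021 and 2289 (high) and 839, 1165 and 916 (low), a log2 difference of 0.77 (SE 0.29, adjusted p = 0.343). Htra1, encoding a secreted serine protease, stood at 10467, 6392 and 12194 (high) and 5344, 7603 and 5423 (low), a log2 difference of 0.63 (SE 0.25, adjusted p = 0.355), and Cbs, an enzyme that makes cystathionine from homocysteine, at 2199.8, 1255 and 2419 (high) and 1049, 1351 and 1352 (low), a log2 difference of 0.60 (SE 0.25, adjusted p = 0.369). In all 3 the second high library lay within the range of the low libraries, while the first and the third lay above it. Aqp4, at 7998, 9462 and 15805 (high) and 6956, 9586 and 8153 (low), overlapped (log2 difference 0.38, SE 0.25, adjusted p = 0.557), as did Gfap (log2 difference 0.41, SE 0.32, adjusted p = 0.612). Slc1a2, Slc1a3 and Aldh1l1 overlapped too, at 0.31, 0.34 and 0.19 (adjusted p = 0.526, 0.469 and 0.731).

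In HPF the third high library stood highest. It was the highest of the 6 for 30 of the 34 genes, as with Slc1a2, at 258745, and Gldc, at 4913. Without it the median over the 34 was 0.17, and without the second high library, the one that stood apart, it was 0.45. Within lane 4, which held the third library of each group, 33 of the 34 genes were higher in the high library, with a median of 0.62 and, at 1 library a group, no test. Without both libraries of lane 4 the median was 0.17.

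The 34 genes were also summarised per library. As the median deviation of the 34 genes from their tissue mean, the low libraries of MDTH stood at 0.12, 0.09 and 0.09 and the high at -0.03, -0.12 and -0.13. In PFC the low libraries stood at 0.06, 0.07 and 0.17 and the high at -0.25, 0.03 and -0.11. In HPF the high libraries stood at 0.12, -0.16 and 0.53 and the low at -0.33, -0.08 and -0.14. The groups did not overlap in MDTH or in PFC, and overlapped in HPF. As a share of all normalized counts, MDTH libraries of high performers gave the 34 genes 1.32% ± 0.109 (SD, n = 3) and those of low performers 1.57% ± 0.0597. The shares were 1.14% ± 0.0624 and 1.28% ± 0.105 in PFC. In HPF they were 1.58% ± 0.271 and 1.25% ± 0.136. Two-sided exact permutation tests gave p = 0.1 in MDTH and HPF, the smallest that 3 against 3 libraries can give, and p = 0.2 in PFC.

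**Figure D4:**
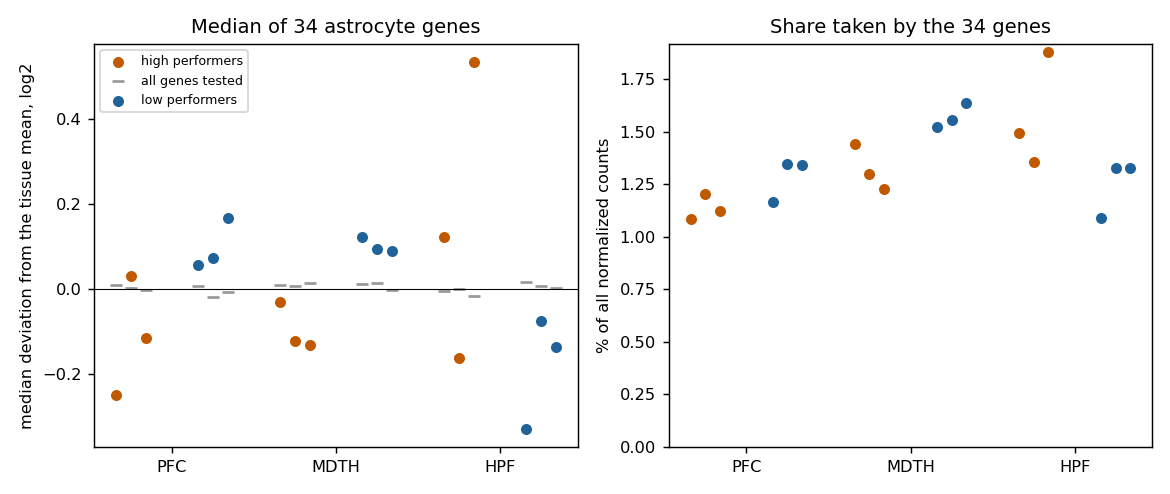
Left, median deviation of the 34 astrocyte genes from their tissue mean in each library (log2, vertical axis), with the same median over all genes tested as grey dashes; right, the percent of all normalized counts taken by the 34 genes, for 3 high and 3 low performers in each tissue (horizontal axis). In MDTH the high libraries lie below the low ones in both plots, and in HPF the third high library is the highest, at 0.53 and 1.88%.

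Other measures moved with these groups. Mitochondrially encoded genes took 5.43% ± 0.172 (SD, n = 3) of the counts of high performers and 8.47% ± 0.279 of those of low performers in PFC, 5.90% ± 0.444 and 7.72% ± 1.06 in MDTH, and 7.44% ± 1.08 and 5.68% ± 0.884 in HPF (exact permutation p = 0.1 each). The sign in each tissue was that of the median of the astrocyte genes. Of 15 neuron markers, 11 had a lower mean in high performers of HPF, and the list's share there was 0.790% ± 0.0882 for high and 1.10% ± 0.0674 for low performers (exact permutation p = 0.1, ranges 0.689% to 0.842% and 1.02% to 1.14%). All 12 microglia markers and all 12 endothelial and mural markers also had a higher mean in high performers of HPF, and none of them passed by limma (2 and 3 with an unadjusted p below 0.05). In MDTH, the habenular transcription factor gene Pou4f1 read 10.4, 54.2 and 31.1 normalized counts (high) and 169, 1335 and 3105 (low). The neuronal genes Slc17a6 and Gad2, whose MDTH values are given above, did not overlap between these groups either. Of 12 choroid plexus and ependymal markers tested in MDTH, 8 had a negative difference (median -0.89), 6 had an unadjusted p below 0.05 and 1 passed, Rsph1 at -2.52 (adjusted p = 0.0132). Foxj1, the regulator of motile cilia in ependymal cells, stood at 143, 204 and 209.5 (high) and 198, 904 and 606 (low), and Ttr at 9695, 1952 and 3880.3 (high) and 2166, 3644 and 1469 (low). In PFC all 11 of this list that were tested had a negative difference (median -1.79), and in HPF 10 of 11 a positive one (median 1.24), none of which passed by limma (0 with an unadjusted p below 0.05 in either tissue). In each tissue the sign of this list's median was also that of the astrocyte genes. That was not particular to this list. Medians in PFC, MDTH and HPF were -0.40, -0.10 and 0.27 for microglia markers and -0.34, -0.25 and 0.34 for oligodendrocyte precursor markers. Lists of other and of reactive astrocyte genes shared these signs too. Oligodendrocyte (0.05) and endothelial and mural markers (0.01) departed from them in MDTH only. Neuron markers had the opposite sign in each tissue (0.09, 0.13 and -0.38). As a share of all normalized counts, the choroid plexus and ependymal list ran from 0.00384% to 0.270% (high) and 0.00929% to 0.224% (low) in PFC, 0.00552% to 0.0204% and 0.00589% to 0.0128% in MDTH, and 0.0151% to 0.322% and 0.00910% to 0.0123% in HPF. The part of any of these in the astrocyte differences was not tested.

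Interaction terms of the limma fit to 18 libraries asked whether the gap between high and low performers was of another size in another tissue. Between MDTH and HPF, the high minus low difference was lower in MDTH for 10 of the 34 genes and higher for 0, where 8.52% and 10.5% of 18254 genes tested passed lower and higher. The median was -0.49, with 32 of the 34 below 0. Clu had the smallest p (log2 difference -1.28, SE 0.25, adjusted p = 0.00317). Its difference was -0.86 in MDTH and 0.42 in HPF, where its libraries stood at 40760.4, 35981 and 50396 (high) and 24668, 33284 and 37583 (low). Agt (log2 difference -1.97, SE 0.44, adjusted p = 0.00601), Apoe (log2 difference -1.14, SE 0.27, adjusted p = 0.00840) and Aqp4 (log2 difference -1.38, SE 0.36, adjusted p = 0.0149) followed. Apoe, at 81287, 64169 and 98018 (high) and 60072, 77381 and 71144 (low), overlapped there, as did Agt and Aqp4. The other 6 were Sox9, Hepacam, Mfge8, Atp1b2, Aldoc and Fgfr3. The number fell to 5 without the second MDTH high, the third HPF high or the first HPF low library. In all 3 of these fits Clu, Agt, Apoe, Aqp4 and Sox9 passed.

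Between HPF and PFC, the high minus low difference was higher in HPF for 6 of the 34 genes and lower for 0, where 3.37% and 5.77% of genes tested passed higher and lower. Atp1b2 led (log2 difference 1.09, SE 0.15, adjusted p = 0.00149). It stood at 29524, 23687 and 28428 (high) and 19237, 22046 and 25303 (low), which overlapped, against the wide gap in PFC. Fgfr3, Hepacam, Apoe, Agt and Clu passed with adjusted p from 0.0411 to 0.0468. Each of these 5 was lost in 11 to 13 of the 18 fits that left out 1 library. The number that passed was 1 to 3 without any one of 12 libraries, namely every HPF library other than the second high, the first and the second high and the second and the third low of PFC, and the third high and the second and the third low of MDTH. It was 12 without the second HPF high library. A block for the number shared by library names also gave 12. Between MDTH and PFC, 0 of the 34 genes passed by limma (3 with an unadjusted p below 0.05), where 0.871% of genes tested passed higher and 2.54% lower. One gene passed without the first MDTH high, the second HPF high or the first or the third HPF low library. With the block for the shared number Atp1b2 passed there, at 0.51 (adjusted p = 0.0352).

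A further list of 34 astrocyte genes held membrane, metal-binding and signalling genes outside the one described so far. In MDTH the high performers had 5 of them higher (14.7%) and 3 lower (8.82%), shares near the 12.5% of all genes tested in each direction, with a median of -0.09, among them S1pr1, a receptor for sphingosine phosphate, at -0.91 (adjusted p = 0.00588), and Mt3, a brain metallothionein, at 0.70 (adjusted p = 0.00640). In PFC 0 passed by limma (10 with an unadjusted p below 0.05, median -0.04), the smallest p being those of S1pr1, at -0.60 (adjusted p = 0.0670), and Axl, a receptor of phagocytosis, at -0.32 (adjusted p = 0.0945). In HPF 0 passed (10 with an unadjusted p below 0.05), 32 of 34 had a higher mean in high performers (median 0.27), and the first places went to Ptprz1, at 0.35 (adjusted p = 0.217), and the connexin Gjb6, at 0.73 (adjusted p = 0.221).

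Genes known to rise in reactive astrocytes were also read, 34 in all, of which 28 to 29 passed the filter. In MDTH, high performers had 2 of 28 lower (7.14%, against 12.5% of all genes tested) and 0 higher, namely the complement gene C3, at -2.72 (adjusted p = 0.0147), and Amigo2, at -0.93 (adjusted p = 0.0206), with a median of -0.32. C3 stood at 6.37, 11.5 and 19.7 normalized counts (high) and 54.2, 66.1 and 144 (low). In PFC 0 passed by limma (3 with an unadjusted p below 0.05, median -0.52), led by Clcf1, at -1.56 (adjusted p = 0.0830), and Hspb1, at -1.66 (adjusted p = 0.0941). In HPF 0 passed (2 with an unadjusted p below 0.05, median 0.05), led by Cd109, at -3.13 (adjusted p = 0.285), and Srgn, at 0.59 (adjusted p = 0.358). Counting all 34, the reactive list took 0.0139% ± 0.00134 (SD, n = 3) of the counts of high performers and 0.0209% ± 0.00198 of those of low performers in MDTH (exact permutation p = 0.1). The shares were 0.0172% and 0.0254% in PFC (exact permutation p = 0.3) and 0.0316% and 0.0348% in HPF (exact permutation p = 0.6). Genes with many counts weigh most in such a share. In MDTH, Serpina3n read 474, 416 and 583 (high) and 5203, 892 and 1113 (low). Amigo2 read 1560, 1255 and 1522 (high) and 2274, 2357 and 3861 (low). Of 28 genes tested there, 8 had a positive and 20 a negative difference. The MDTH share thus does not show a shift of the whole list.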

How the data were processed

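The authors deposited a signal for every gene in every library, described in the table's name as normalized counts. Per the submitters' processing notes, the tools were STAR, Salmon and DESeq2, whose versions and roles are not stated. The kit was a stranded TruSeq mRNA one, per the labels. The sources used here do not give the genome build, the annotation or the use of strand. All columns matched a library name (0 unmatched). Taking the commonest low value of a library as 1 read gave its depth. Within 0.02 of a read, 45.2% to 79.4% of low values were whole, so whole reads were not recovered and count tests were not run.

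Differences were tested with limma 3.58.1 (R 4.3.3) on log2(normalized count + 1), which understates changes of low genes, after a filter on a mean of at least 10, two-sided, with a mean-variance trend and Benjamini-Hochberg adjustment over all genes tested (threshold 0.05). All adjusted p-values are from these fits, which were tested on simulated data. Counts of genes at an unadjusted p below 0.05 are given without the share over all genes tested. They cannot be read as an excess. Performance was tested within each tissue, and tissue differences and interactions in 1 fit to 18 libraries. Tables and figures were made with Python 3.11.15, pandas 2.3.3, numpy 2.4.6 and matplotlib 3.10.9. Exon lengths and coordinates are from GENCODE M21 (GRCm38).

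The genes and lists were chosen with earlier results of these data known. Values are given for Gfap, Aqp4, Aldh1l1, Slc1a2 and Slc1a3, for genes that passed in a tissue (or the 5 with the smallest p), for the 4 largest tissue differences and the 4 interactions of smallest p, and for 2 genes of each other list per comparison. Other genes named are examples chosen after their values were seen. Promoters of genes passing alike in PFC and MDTH were to be shown, and 0 met this. Protein sequences were not used here. Library names share a number across tissues, and the deviations of same-numbered libraries correlated at 0.346 to 0.611 in all 11 pairs, so that number was taken as a pairing across tissues. The high libraries of every tissue carry the numbers 44, 88 and 165, so performance differences in different tissues are not independent of each other.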

Additional observations from a re-analysis of the deposited data

Results flagged for a closer look

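Each of the following differences between tissues passed as an interaction in the limma fit to all 18 libraries, so that the high minus low difference of the gene was not alike in 2 tissues. Values are log2 differences of differences. For MDTH against HPF they were -1.28 (adjusted p = 0.00317) for Clu, -1.97 (adjusted p = 0.00601) for Agt, -1.14 (adjusted p = 0.00840) for Apoe, -1.38 (adjusted p = 0.0149) for Aqp4 and -1.18 (adjusted p = 0.0163) for Sox9. They were smaller for Hepacam, at -0.89 (adjusted p = 0.0207), Mfge8, at -0.69 (adjusted p = 0.0219), Atp1b2, at -0.53 (adjusted p = 0.0244), Aldoc, at -0.68 (adjusted p = 0.0255), and Fgfr3, at -0.68 (adjusted p = 0.0364). For HPF against PFC they were 1.09 (adjusted p = 0.00149) for Atp1b2, 0.74 (adjusted p = 0.0411) for Fgfr3, 0.86 (adjusted p = 0.0414) for Hepacam, 0.93 (adjusted p = 0.0426) for Apoe, 1.48 (adjusted p = 0.0460) for Agt and 0.86 (adjusted p = 0.0468) for Clu. In PFC and MDTH the name style separates the performance groups. In HPF letters in the names do so and the lanes nearly do. A tissue difference in these values and a difference in how the libraries were made therefore cannot be told apart.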

How the results depend on the processing

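The tests were repeated with other pseudocounts, filters, scalings and spreads, and without each library in turn. Shares of all genes that passed in these repeats are not given here. In PFC the number of genes lower was 3 with a mean of at least 50, 4 with the spread of all 18 libraries, and 0 without a trend or without the libraries high in Ttr, where the median was -0.13; it ran from 0 to 2 over single libraries left out. In MDTH the number higher was 0 without a trend and with all 18 libraries, and 0 to 1 over single libraries left out, the number lower 3 to 10 and the median -0.20 to -0.058. For MDTH against HPF, 8 were higher in high performers alone (median -0.12, against the main sign) and 5 lower in low performers alone (median 0.41). There Clu turned from -0.40 to 0.24 in low (-1.04 in high) and Hepacam to -0.041 in high performers alone. For HPF against PFC, low performers alone gave 7 higher, 6 lower, a median of -0.046 and F3 at -0.055, and high performers alone a median of 0.63, and single libraries left out gave 1 to 2 lower. For interactions, the number higher for HPF against PFC was 1 without a filter, without a trend and in a fit to its 12 libraries, and 1 to 12 over single libraries left out. For MDTH against PFC it was 1 in a fit to its 12 libraries and 0 to 1 over single libraries left out, and for MDTH against HPF 5 to 14 were lower. No other median, and no other gene that had passed, turned direction. The cause was not tested.

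A replicate block on the title number, which paired no libraries (correlations -0.127 to 0.0923), left 0 genes lower in PFC and 0 higher in MDTH. The adjusted p was then 0.0838 for Atp1b2 in PFC, and in MDTH 0.077 for Aqp4, 0.0554 for Ntsr2 and 0.0839 for Mlc1. With the replicate block by name number (correlation 0.356), 12 interactions were higher for HPF against PFC and 1 for MDTH against PFC, and 2 genes lower in HPF than in PFC. For MDTH against HPF, Gfap, Glul, F3, Slc6a11 and Sparcl1 also passed as lower interactions with that block. Pairing changed no other count by more than 1.5 times. With 3 libraries a group, differences smaller than the spread of single libraries were not detectable.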

Other observations

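Markers of other brain cells were read beside the astrocyte genes. In MDTH, where high performers had 12.5% of all genes tested higher and 12.5% lower, 4 of 15 neuron markers were lower (26.7%) and 2 higher (13.3%), among them Gad2, which makes GABA, at -3.05 (adjusted p = 0.00701), and Slc17a6, at 0.60 (adjusted p = 0.00547). The oligodendrocyte precursor markers C1ql1, at -1.02 (adjusted p = 0.00702), and Sox10, at -0.80 (adjusted p = 0.00845), were 2 of 3 that were lower there (37.5% of the list). Of 12 oligodendrocyte markers 1 was lower (8.33%), Mbp standing at -0.42 (adjusted p = 0.0254) and Mobp at -0.39 (adjusted p = 0.0606). Of 12 microglia markers 1 was higher (8.33%), Cx3cr1 at 0.40 (adjusted p = 0.0208). The endothelial genes Cdh5, at -0.35 (adjusted p = 0.114), and Slco1a4, at 0.41 (adjusted p = 0.116), did not pass. Of 12 choroid plexus and ependymal markers 1 was lower (8.33%), with Rsph1 at -2.52 (adjusted p = 0.0132) and Enkur at -2.42 (adjusted p = 0.0551).

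In PFC, where 2.63% of all genes tested were lower and 3.22% higher, 3 of 12 microglia markers were lower in high performers (25.0%), with P2ry12 at -0.61 (adjusted p = 0.0288) and C1qa at -0.89 (adjusted p = 0.0340), and 1 of 12 endothelial and mural markers (8.33%), with Flt1 at -0.56 (adjusted p = 0.0416) and Cdh5 at -0.81 (adjusted p = 0.158). None of the neuron markers (Rbfox3 at -0.50 (adjusted p = 0.0551), Syn1 at -0.56 (adjusted p = 0.0658)), oligodendrocyte markers (Mbp at -0.58 (adjusted p = 0.483), Mobp at -0.45 (adjusted p = 0.577)) or precursor markers (C1ql1 at -0.89 (adjusted p = 0.0563), Sox10 at -0.85 (adjusted p = 0.175)) passed by limma, with 2, 0 and 2 at an unadjusted p below 0.05. Choroid plexus and ependymal genes did not pass either (0 at an unadjusted p below 0.05), with Ccdc153 at -2.54 (adjusted p = 0.215) and Foxj1 at -0.75 (adjusted p = 0.344).

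In HPF, 0 markers of these lists passed by limma. Of the neuron markers 9 of 15 had an unadjusted p below 0.05, led by Snap25, at -0.85 (adjusted p = 0.153), and Syn1, at -0.62 (adjusted p = 0.166). The smallest p of the other lists were those of Csf1r, at 0.39 (adjusted p = 0.358), and Cx3cr1, at 0.45 (adjusted p = 0.374), for microglia, and Slco1a4, at 0.60 (adjusted p = 0.227), and Abcb1a, at 0.70 (adjusted p = 0.282), for endothelium. For the oligodendrocyte lineage they were Gjc3, at 0.21 (adjusted p = 0.610), Cnp, at 0.18 (adjusted p = 0.618), Vcan, at 0.48 (adjusted p = 0.306), and Cspg4, at 0.33 (adjusted p = 0.424), and for choroid plexus and ependyma Dynlrb2, at 1.66 (adjusted p = 0.415), and Ttr, at 2.34 (adjusted p = 0.435).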
